A study of Homo sapiens with 6 samples.

Results

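A group of 10 genes that encode cytokine receptor chains was examined: the gp130-family receptors IL6R, IL6ST, OSMR and LIFR, the receptors of IL-7, IL-4 and IL-13 (IL7R, IL4R and IL13RA1), and IL1R1, IL10RB and IL17RA. They were chosen by gene name, and all 10 are among the 14959 genes of the deposited expression table. RNA came from UM-SCC1, a human cell line long established from a squamous carcinoma of the head and neck (HNSCC), 48 h after transfection, from 3 independent experiments with mimics of miR-204-5p and as many (3) with control oligos. Mimics are synthetic RNA duplexes that the cell loads like its own mature miRNA, and the control oligo stood in for them in the other group. The 2 groups are called miR-204-5p libraries and control libraries. No other cell line, dose or time is compared here, and mature miRNA is not among the features of the table.

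Cytokine receptors work as pairs or trios of chains. IL-6 first binds the IL-6 receptor (IL6R), and the complex then engages gp130 (IL6ST), the chain that passes the signal to JAK kinases and STAT3. LIF and oncostatin M use gp130 together with LIFR or OSMR. IL-4 and IL-13 share a receptor of IL4R and IL13RA1 in epithelial cells, which signals through STAT6. IL7R pairs with the common gamma chain (IL2RG) to bind IL-7, mainly in lymphocytes, and with CRLF2 to bind TSLP. IL1R1 needs the accessory chain IL1RAP, IL10RB is the shared second chain of the IL-10, IL-22 and interferon lambda receptors, and IL17RA is shared by several IL-17 receptors. In squamous epithelium these receptors receive signals from immune and stromal cells.

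A miRNA recognizes mRNAs mainly through its seed, bases 2 to 8, and lowers the level or translation of mRNAs whose 3'UTR holds the complement. The mature sequence of miR-204-5p in RefSeq (GRCh38.p14, chr9:70810031-70810052, minus strand) is printed here with the seed in capitals, since the sites that follow are its complement. Only 1 other mature human miRNA of that table has the same seed.
hsa-miR-204-5p: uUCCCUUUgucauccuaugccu
hsa-miR-211-5p: uUCCCUUUgucauccuucgccu

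Seed matches were sought on the transcript strand in the longest 3'UTR that GENCODE 29 gives each gene, as an 8mer (AAAGGGAA), a 7mer-m8 (AAAGGGA) or a 7mer-A1 (AAGGGAA). Each 8mer contains both 7mers and is counted once, as an 8mer. Of the 10 receptors, 7 held at least 1 match. An 8mer was found in IL7R, which had 2, and in IL6R and LIFR. A 7mer-m8 was the best match of IL13RA1, IL6ST and IL1R1, and a 7mer-A1 that of IL4R. OSMR, IL10RB and IL17RA held none. Among all 14664 genes with a 3'UTR, 8.61% had an 8mer, 9.83% a 7mer-m8 at best, 8.67% a 7mer-A1 at best and 27.1% any of the 3. The receptors' 3'UTRs were longer than most, with a median of 3116 bases against 1254 bases over all genes, and the share with a match was not tested against 3'UTRs of that length. The 8mer and 7mer-m8 sites are shown along the transcript, 5' to 3', with the seed match in capitals.
IL7R site 1: acaaagatgatttaAAAGGGAAgtct
IL7R site 2: cagtttggaaagtgAAAGGGAAactt
IL6R: agcaaaatgctgttAAAGGGAAatat
LIFR: ggatgttttcttccAAAGGGAAttta
IL13RA1: aaaatagctgagggaAAAGGGAggga
IL6ST site 1: ctaccctcatctctgAAAGGGAtaat
IL6ST site 2: tgatgtgttagaaacAAAGGGAtatt
IL1R1: ctcacttcaatgaacAAAGGGAttct

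On GRCh38 the 8mers of IL7R lie in the last exon, exon 8, at chr5:35876536-35876543 and chr5:35877195-35877202. That of IL6R is in exon 10 at chr1:154467846-154467853, and that of LIFR in exon 20 at chr5:38478071-38478078 on the minus strand. The 7mer-m8 of IL13RA1 is in exon 11 at chrX:118794178-118794184. Those of IL6ST are in exon 14 of the transcript with the longest 3'UTR, at chr5:55938405-55938411 and chr5:55937040-55937046 on the minus strand, and that of IL1R1 is in exon 12 at chr2:102177628-102177634. All of these are 3'UTR positions. IL6ST also has a 7mer-A1 in exon 8, which is coding sequence in 3 of its 5 coding transcripts, and IL1R1 has a 7mer-A1 in exon 12 at chr2:102176903-102176909.

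The deposited values are FPKM, fragments scaled to transcript length and library depth. The table names 1 transcript per gene, which bears on how levels are read. The transcripts listed for IL7R (4 exons, 562 bases), IL4R (4 exons, 529 bases) and IL1R1 (5 exons, 609 bases) are partial models that GENCODE 29 marks as lacking their 3' end. Those of IL6R (7 exons, 1496 bases), OSMR (7 exons, 1740 bases) and IL10RB (7 exons, 1963 bases) share no base with the longest 3'UTR of the gene, which for IL10RB comes from another short transcript of 2 exons. For IL13RA1, IL6ST, LIFR and IL17RA the listed transcript runs through it (for IL17RA, 5873 of its 5874 bases). The sites of IL7R, IL6R, IL4R and IL1R1 therefore lie outside the listed transcript. Whether a gene's value rests on the length of that transcript alone is not given in the sources used here, so the order of levels between genes is approximate.

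The table gives no fragment numbers. The smallest step in the product of FPKM and length was sought in genes that have 1 annotated transcript. There 26.8% to 30.1% of low values were whole multiples within 0.02 of a step against 3.12% to 3.28% at other steps. The depth so inferred was 13.1 to 15.9 M (mega) fragments in the miR-204-5p libraries and 13.9 to 16.4 M in the control libraries. All 10 squamous epithelial markers were in the table, with summed FPKM of 976 to 1080 in the miR-204-5p libraries and 1140 to 1170 in the control libraries. Of the 10, 9 passed the test (6 lower, 3 higher). EPCAM, 1 of the lower, kept its call in 0 of 6 fits that left out a library. Of 5 endothelial markers listed, 4 were in the table, and all 4 stayed below 1 FPKM in all 6 libraries. Of 8 fibroblast markers listed, 4 were in the table. Among them, 3 stayed below 1 FPKM in all 6 libraries, whereas COL1A1 reached 8.04 to 10.5 FPKM. Of these, 1 endothelial marker (VWF) and 2 fibroblast markers were called higher. The call of VWF was kept in 2 of 6 fits that left out a library. Lymphoid and myeloid markers are given beside IL7R.

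Of the 10 receptors, 7 passed an adjusted p of 0.05 in limma, 5 of them lower and 2 higher in the miR-204-5p libraries. Over all genes, 40.8% passed (16.8% lower, 23.9% higher). IL6R, IL6ST, OSMR, IL17RA and IL1R1 fell, and IL7R and IL13RA1 rose. These 7 were also the receptors whose FPKM did not overlap between groups, 7 of 10 (5 below, 2 above) against 53.6% of all genes (22.7% below, 30.9% above). LIFR, IL4R and IL10RB did not pass. The median log2 change of the 10 was −0.28, against 0.03 over all 14959 genes. Fold changes are differences of log2(FPKM + 1) and understate the change of genes with low FPKM.

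**Figure D1:**
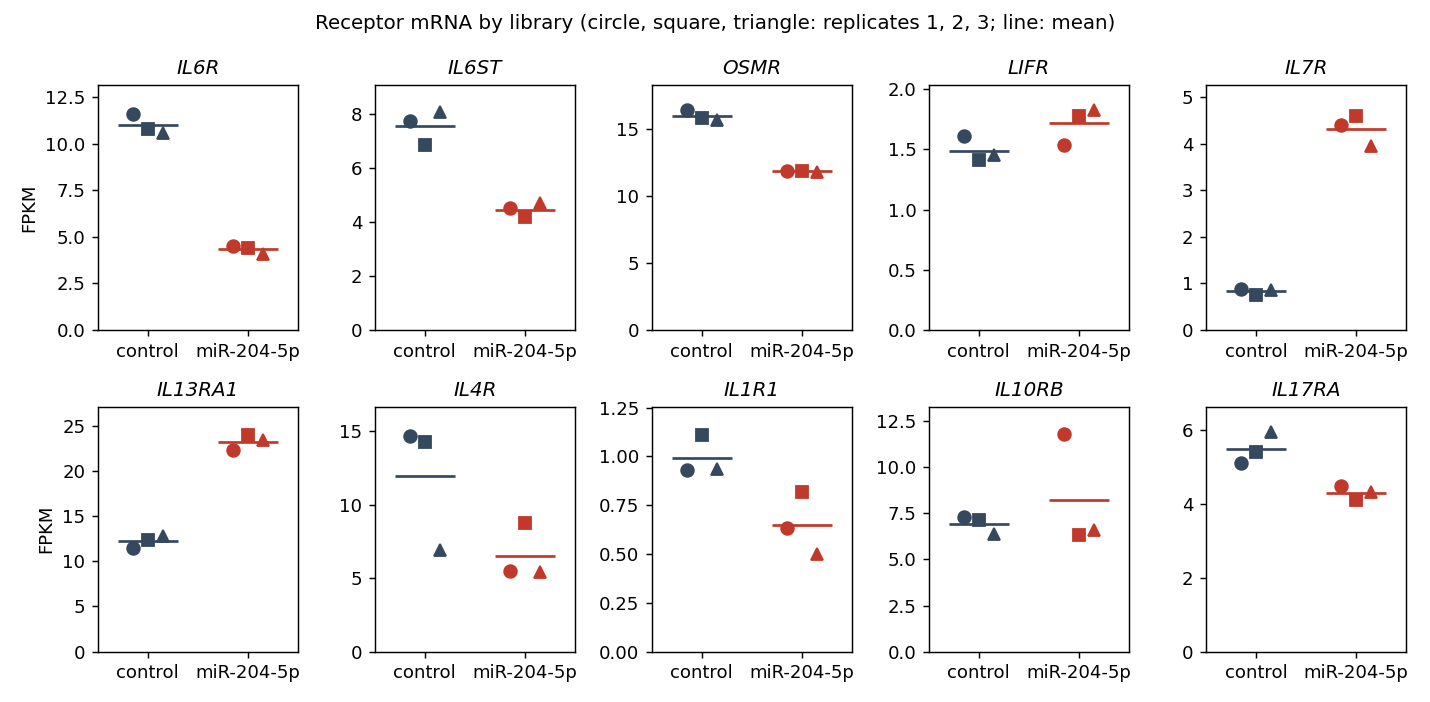
FPKM of each receptor (y axis, from 0, own scale per panel) in the 3 control libraries (dark) and the 3 miR-204-5p libraries (red). Points are libraries, with symbols for replicates 1, 2 and 3, and lines are means. IL6R, IL6ST, OSMR, IL1R1 and IL17RA have all red points below all dark points, IL7R and IL13RA1 all above, and IL4R, LIFR and IL10RB overlap.

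The signaling chain and the ligand-binding chain of the IL-6 receptor were both lower in the miR-204-5p libraries. IL6R (ENSG00000160712, chr1:154405193-154469450) was at 11.6, 10.8 and 10.6 FPKM in the control libraries and at 4.53, 4.38 and 4.08 FPKM in the miR-204-5p libraries. All 3 miR-204-5p libraries were far below the lowest control library. The mean fell from 11 ± 0.531 to 4.33 ± 0.227 FPKM (SD, n = 3), to 39.4% of control, a log2 change of −1.17 (95% interval −1.32 to −1.02, limma adjusted p = 6.98e-05). This was the largest decrease among the 10 receptors. In bulk RNA, fewer cells with a transcript and less of it per cell cannot be told apart.

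IL6ST (ENSG00000134352, chr5:55935095-55994993, minus strand), which encodes gp130, was at 7.73, 6.86 and 8.06 FPKM in the control libraries and at 4.50, 4.18 and 4.70 FPKM in the miR-204-5p libraries. The groups did not overlap, and the mean fell to 59.1% of control (log2 change −0.65, 95% interval −0.83 to −0.47, limma adjusted p = 0.000974).

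OSMR (ENSG00000145623, chr5:38845858-38945596) encodes a chain of the oncostatin M receptor. It was at 16.4, 15.8 and 15.7 FPKM in the control libraries and at 11.9, 11.9 and 11.8 FPKM in the miR-204-5p libraries. The spread was small in both groups, and the mean fell to 74.5% of control (log2 change −0.40, 95% interval −0.49 to −0.30, limma adjusted p = 0.000561). Beyond the listed transcript, OSMR overlaps RICTOR on the other strand. RICTOR was at 11, 11.8 and 13.7 FPKM in the miR-204-5p libraries and 14.2, 13.4 and 11.6 FPKM in the control libraries, and its groups overlapped. Whether counting used the strand is not given in the sources used here.

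LIFR (ENSG00000113594, chr5:38474963-38608354, minus strand), the chain that binds LIF, did not pass the test. Its values were 1.61, 1.41 and 1.45 FPKM in the control libraries and 1.54, 1.78 and 1.83 FPKM in the miR-204-5p libraries. The groups overlapped through miR-204-5p replicate 1 and control replicate 1 (log2 change 0.13, 95% interval −0.04 to 0.29, limma adjusted p = 0.190). LIFR and IL6R both carry an 8mer, that of LIFR within the listed transcript and that of IL6R outside it. A link between site and change was not tested.

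Because IL6R, LIFR and OSMR each act with gp130, the FPKM of 2 chains was divided within each library, which removes the scaling of the library. IL6R per IL6ST was 1.5, 1.58 and 1.31 in the control libraries and 1.01, 1.05 and 0.869 in the miR-204-5p libraries, so every ratio in the miR-204-5p libraries was lower (difference of the mean log2 ratio −0.59). LIFR per IL6ST moved the other way, from 0.208, 0.206 and 0.180 to 0.343, 0.426 and 0.390 (difference 0.96). OSMR per IL6ST rose less, from 2.12, 2.31 and 1.94 to 2.64, 2.85 and 2.52 (difference 0.33). LIFR per OSMR went from 0.0983, 0.0894 and 0.0927 to 0.130, 0.15 and 0.155 (difference 0.63). None of these 4 ratios overlapped between groups. Each gave a two-sided exact permutation p of 0.1, the smallest that 3 libraries against 3 allow, and 0.12 after Benjamini-Hochberg adjustment over the 6 pairs compared, so no pair could pass 0.05 in this design.

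**Figure D2:**
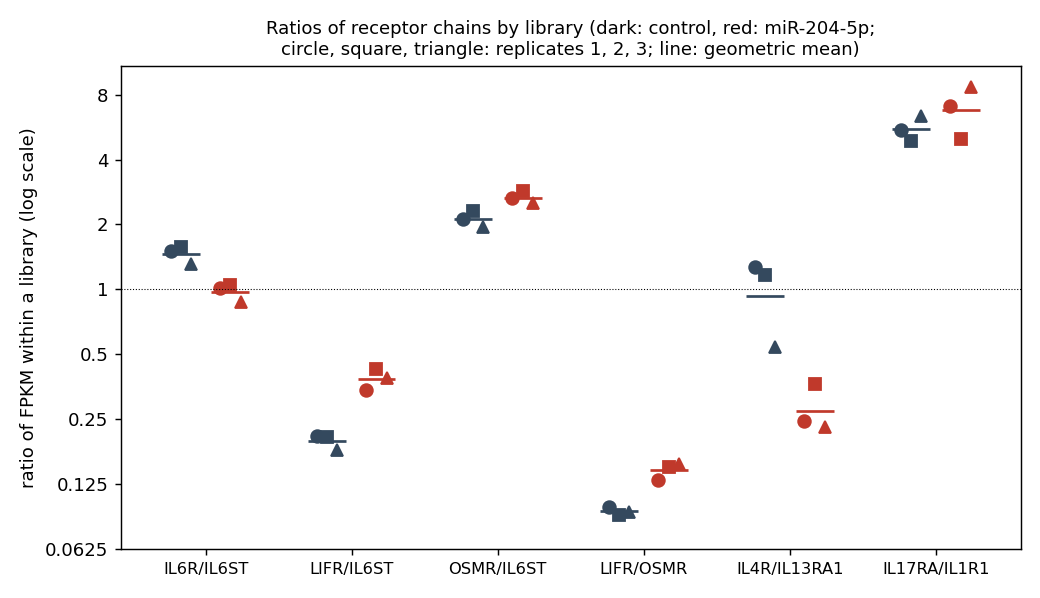
Ratio of the FPKM of 2 receptor chains within a library (y axis, log scale) for 6 pairs, in the control libraries (dark) and the miR-204-5p libraries (red). Points are libraries and lines are geometric means. IL6R/IL6ST and IL4R/IL13RA1 are lower in the miR-204-5p libraries, LIFR/IL6ST, OSMR/IL6ST and LIFR/OSMR are higher, and IL17RA/IL1R1 overlaps.

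The receptors of IL-7, IL-4 and IL-13 did not move as one. IL7R (ENSG00000168685, chr5:35852695-35879603) had the largest change of the 10, from 0.870, 0.751 and 0.860 FPKM in the control libraries to 4.39, 4.59 and 3.94 FPKM in the miR-204-5p libraries. Every miR-204-5p library was well above every control library, and the mean was 5.21 times that of control (log2 change 1.54, 95% interval 1.37 to 1.71, limma adjusted p = 5.63e-05). With the listed length of 562 bases, these values correspond to 5.88 to 7.93 fragments per control library and 32.2 to 41.1 fragments per miR-204-5p library. If that length holds, which is not known, the fold rests on few fragments in the control group. The longest 3'UTR of IL7R is the one with 2 of the 8mers shown above, and their part in the change was not tested.

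IL7R is best known as a lymphocyte gene, so lymphoid and myeloid markers were examined beside it. Of 13 such markers, 12 were in the table, with summed FPKM of 28.1 to 31.8 in the miR-204-5p libraries and 33.3 to 34.7 in the control libraries, and 1 passed the test, CD14, which was lower. CD14, CD68 and LYZ made up most of that sum. PTPRC, which encodes the leukocyte antigen CD45, was at 0.179, 0.546 and 0.153 FPKM in the miR-204-5p libraries and at 0.15, 0.12 and 0.143 FPKM in the control libraries. CD3E was at 0.198, 0.850 and 0.166 FPKM and at 0.224, 0.417 and 0.0395 FPKM. The groups of CD3E overlapped, and those of PTPRC did not. NKG7, a gene of cytotoxic lymphocytes, was also higher in every miR-204-5p library, at 0.564, 1.85 and 0.514 FPKM against 0.266, 0.274 and 0.380 FPKM in the control libraries. Neither PTPRC (limma adjusted p = 0.271) nor NKG7 (limma adjusted p = 0.121) passed. PTPRC, CD3E and NKG7 were highest in miR-204-5p replicate 2, and the change of IL7R without that library was of like size (log2 change 1.5, limma adjusted p = 0.000668). The part of lymphoid RNA in the result was not tested.

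Among genes averaging at least 1 FPKM, the 3 whose profile over the 6 libraries was closest to that of IL7R were ANXA3, PHLDB1 and TSPAN1, judged by the root mean square difference of centered log2(FPKM + 1), which was 0.0444, 0.0530 and 0.0694. ANXA3 went from 40.3 ± 1.12 to 113 ± 8.21 FPKM, PHLDB1 from 3.68 ± 0.225 to 11.7 ± 1.06 FPKM and TSPAN1 from 26 ± 1.12 to 76.0 ± 2.63 FPKM (SD, n = 3). With 2 groups of 3 libraries, this likeness mostly means a step of similar size between groups.

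IL13RA1 (ENSG00000131724, chrX:118727572-118794539), the chain that binds IL-13, was at 11.5, 12.3 and 12.8 FPKM in the control libraries and at 22.3, 24.0 and 23.4 FPKM in the miR-204-5p libraries. The lowest value in the miR-204-5p libraries was above the highest control value, and the mean was 1.90 times that of control (log2 change 0.87, 95% interval 0.75 to 1.00, limma adjusted p = 0.000106). Its 7mer-m8 lies within the listed transcript.

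IL4R (ENSG00000077238, chr16:27313668-27364778), its partner, was at 14.7, 14.3 and 6.95 FPKM in the control libraries and at 5.46, 8.75 and 5.4 FPKM in the miR-204-5p libraries. Control replicate 3 stood apart from its group and lay below miR-204-5p replicate 2, so the groups overlapped. The log2 change of −0.75 had a wide interval (−1.47 to −0.03) and did not pass the test (limma adjusted p = 0.0907). Without control replicate 3 it was −1.07 and passed (limma adjusted p = 0.0118). In the other 5 fits that left out a library it did not pass, with limma adjusted p from 0.0713 to 0.230, and it was as small as −0.58 without control replicate 1.

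IL4R per IL13RA1 within a library was 1.27, 1.16 and 0.542 in the control libraries and 0.245, 0.365 and 0.230 in the miR-204-5p libraries. All 3 ratios in the miR-204-5p libraries were below the lowest control ratio, with a difference of the mean log2 ratio of −1.76 (exact permutation p = 0.1, adjusted over the 6 pairs 0.12). With a library left out the difference ran from −1.53, without control replicate 1, to −2.15, without control replicate 3.

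IL1R1 (ENSG00000115594, chr2:102064544-102179874), the signaling receptor of IL-1, was the receptor with the lowest FPKM in the miR-204-5p libraries. It was at 0.929, 1.11 and 0.936 FPKM in the control libraries and at 0.631, 0.820 and 0.499 FPKM in the miR-204-5p libraries, without overlap. The log2 change was −0.27 (95% interval −0.47 to −0.07, limma adjusted p = 0.0385). The call was lost in 5 of the 6 fits that left out 1 library, all but that without miR-204-5p replicate 2, with limma adjusted p from 0.0693 to 0.111. At the listed length of 609 bases the values correspond to 4.73 to 9.42 fragments per library.

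IL17RA (ENSG00000177663, chr22:17084954-17115694), the shared chain of the IL-17 receptors, was at 5.09, 5.4 and 5.93 FPKM in the control libraries and at 4.49, 4.10 and 4.32 FPKM in the miR-204-5p libraries. Every miR-204-5p library was below every control library (log2 change −0.29, 95% interval −0.45 to −0.12, limma adjusted p = 0.0178). The call was lost without miR-204-5p replicate 2 (limma adjusted p = 0.0596) or control replicate 3 (limma adjusted p = 0.0505). IL17RA per IL1R1 was 5.48, 4.86 and 6.34 in the control libraries and 7.11, 5.00 and 8.67 in the miR-204-5p libraries, which overlap (exact permutation p = 0.3).

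IL10RB (ENSG00000243646, chr21:33266358-33310187) was at 7.30, 7.12 and 6.38 FPKM in the control libraries and at 11.8, 6.31 and 6.60 FPKM in the miR-204-5p libraries. Of the latter, only replicate 1 lay above the control range. The log2 change was 0.17 (95% interval −0.34 to 0.69, limma adjusted p = 0.560) and −0.09 without miR-204-5p replicate 1. IL10RB overlaps AP000295.1, a gene on the same strand that also covers the neighboring IFNAR2, and how fragments were divided between them is not given in the sources used here. AP000295.1 is listed at 0, 0.136 and 0 FPKM in the miR-204-5p libraries and at 0, 0.118 and 1.93 FPKM in the control libraries.

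**Figure D3:**
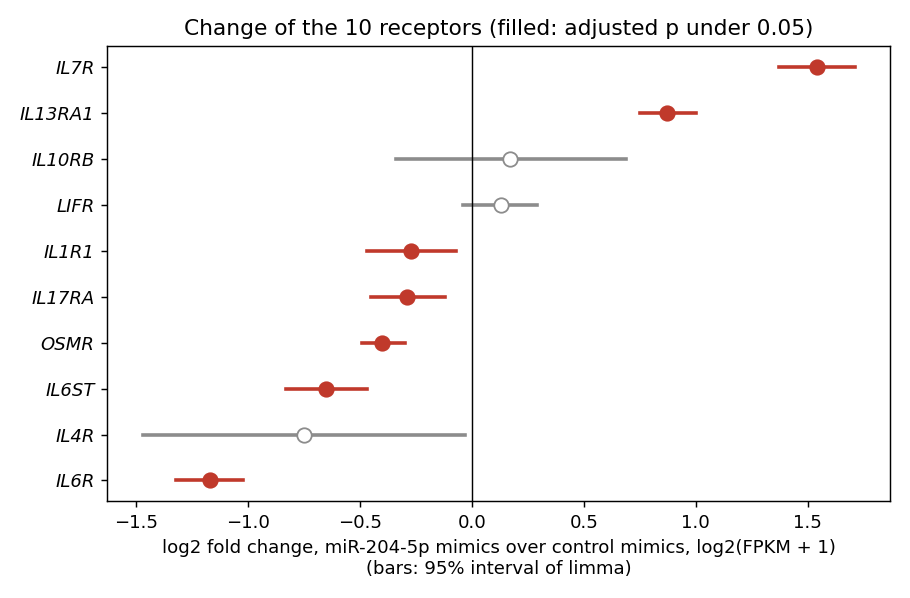
Log2 change of each receptor (x axis, miR-204-5p over control, log2(FPKM + 1)), with the 95% interval of limma as bars. Filled points have an adjusted p-value under 0.05. IL7R (1.54) and IL13RA1 (0.87) lie to the right and IL6R (−1.17) farthest to the left, and the interval of IL10RB is wide on both sides of 0.

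In the control libraries the receptor levels ran from OSMR (15.9 FPKM) through IL13RA1 (12.2), IL4R (12), IL6R (11), IL6ST (7.55), IL10RB (6.93), IL17RA (5.48), LIFR (1.49) and IL1R1 (0.992) to IL7R (0.827). The ranges of neighbors overlapped for IL13RA1 with IL4R, IL4R with IL6R, and IL6ST with IL10RB. In the miR-204-5p libraries the order began with IL13RA1 (23.2 FPKM), OSMR (11.9), IL10RB (8.24) and IL4R (6.53), the last 2 with overlapping ranges. IL6ST (4.46), IL6R (4.33), IL7R (4.31) and IL17RA (4.31) came next, each overlapping its neighbor, and LIFR (1.72) and IL1R1 (0.650) were lowest. IL6R thus went from above the range of gp130 to a range that overlapped it, as did IL7R from the lowest place.

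The ligands of these receptors were examined as a list of 33 genes, of which 20 were in the table and 12 had a mean FPKM of at least 1. In limma, 5 of the 20 were lower and 7 higher in the miR-204-5p libraries, against 16.8% and 23.9% of all genes. The median log2 change of the list was 0.09. Among the ligands and ligand subunits of the gp130 family, 4 rose. LIF was at 8.33, 6.57 and 6.32 FPKM in the control libraries and 11.8, 12.8 and 13 FPKM in the miR-204-5p libraries (log2 change 0.75, limma adjusted p = 0.00168). IL6 was at 0.152, 0.0777 and 0.0695 FPKM and 1.30, 0.908 and 1.11 FPKM, higher in all 3 libraries while both chains of its receptor were lower. EBI3, a subunit of IL-27, went from 1.81 ± 0.450 to 5.02 ± 0.974 FPKM (SD, n = 3; limma adjusted p = 0.00227). CTF1, which encodes cardiotrophin-1, was higher (log2 change 0.80, limma adjusted p = 0.0244), a call kept in 2 of 6 fits that left out a library. CNTF, the ciliary neurotrophic factor gene, was lower (log2 change −0.78, limma adjusted p = 0.0129). CLCF1 (log2 change −0.01) and IL11 (0.07) did not pass. OSM, the ligand of OSMR, was not analysed here.

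On the IL-1 side, all 3 ligands listed, the accessory chain and IL1R1 were lower. IL1A was at 168, 162 and 164 FPKM in the control libraries and 94.8, 101 and 96.0 FPKM in the miR-204-5p libraries (log2 change −0.75, limma adjusted p = 6.74e-05). IL1B (log2 change −0.16, limma adjusted p = 0.0219) and IL1RN, which encodes the IL-1 receptor antagonist (−0.55, limma adjusted p = 0.00324), were lower too, although the call of IL1B was kept in 2 of 6 fits that left out a library. IL1RAP, the accessory chain of IL1R1, fell from 8.77 ± 0.373 to 5.02 ± 0.217 FPKM (log2 change −0.70, limma adjusted p = 0.000282). IL18, a cytokine of the IL-1 family with its own receptor, rose from 36.6 ± 2.30 to 71.7 ± 5.41 FPKM (log2 change 0.95, limma adjusted p = 0.000191). Its receptor chain IL18R1 was at or under 0.106 FPKM in all 6 libraries.

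For IL7R, IL4R and IL13RA1, partners and ligands were low or did not pass. IL7 was at 3.91, 3.46 and 3.61 FPKM in the control libraries and 5.02, 3.84 and 3.41 FPKM in the miR-204-5p libraries, which overlap (limma adjusted p = 0.482). IL2RG, the common gamma chain, was at 0.436, 0.989 and 0.553 FPKM and 0.765, 1.63 and 0.791 FPKM (log2 change 0.30, limma adjusted p = 0.252). TSLP stayed at or under 0.0641 FPKM. CRLF2, IL13RA2, IL4 and IL13 were not analysed here.

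Of 44 other chains of cytokine receptors, 33 were in the table. By limma, 11 of these were lower and 6 higher in the miR-204-5p libraries, against 16.8% and 23.9% of all genes. Their median log2 change was 0.00. Without miR-204-5p replicate 1 or control replicate 2, 11 of the 33 were called in place of 17. Of the chains that pair with gp130, IL27RA fell from 16.0 ± 0.702 to 9.75 ± 0.922 FPKM (log2 change −0.67, limma adjusted p = 0.000821), and IL11RA was lower (log2 change −0.21), a call kept in 2 of 6 fits that left out a library. Of the chains that pair with IL10RB, IFNLR1, the interferon lambda receptor, fell from 4.27 ± 0.259 to 2.89 ± 0.230 FPKM (limma adjusted p = 0.00389), and IL22RA1 was lower (log2 change −0.23), a call kept in 1 of those 6 fits. IL10RA, the IL-10 receptor chain, was low and called higher, at 0.138, 0.209 and 0.0985 FPKM in the miR-204-5p libraries and 0.0546, 0.0184 and 0.0313 FPKM in the control libraries (limma adjusted p = 0.0409), a call also kept in 1 of those 6 fits. IL20RB, which pairs with IL22RA1 or IL20RA, fell from 13.4 ± 0.488 to 8.85 ± 1.09 FPKM. Of the chains that pair with IL17RA, IL17RE (log2 change −0.57, limma adjusted p = 0.000811) and IL17RC (−0.28, limma adjusted p = 0.0138) were lower and IL17RB (0.01) did not pass. IL17RD was higher (log2 change 0.21), a call kept in 1 of those 6 fits. The largest rise of the list was CSF2RA, the GM-CSF receptor alpha chain, from 1.40 ± 0.169 to 3.59 ± 0.200 FPKM (log2 change 0.94, limma adjusted p = 0.000255), while its partner CSF2RB stayed at or under 0.273 FPKM.

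**Figure D4:**
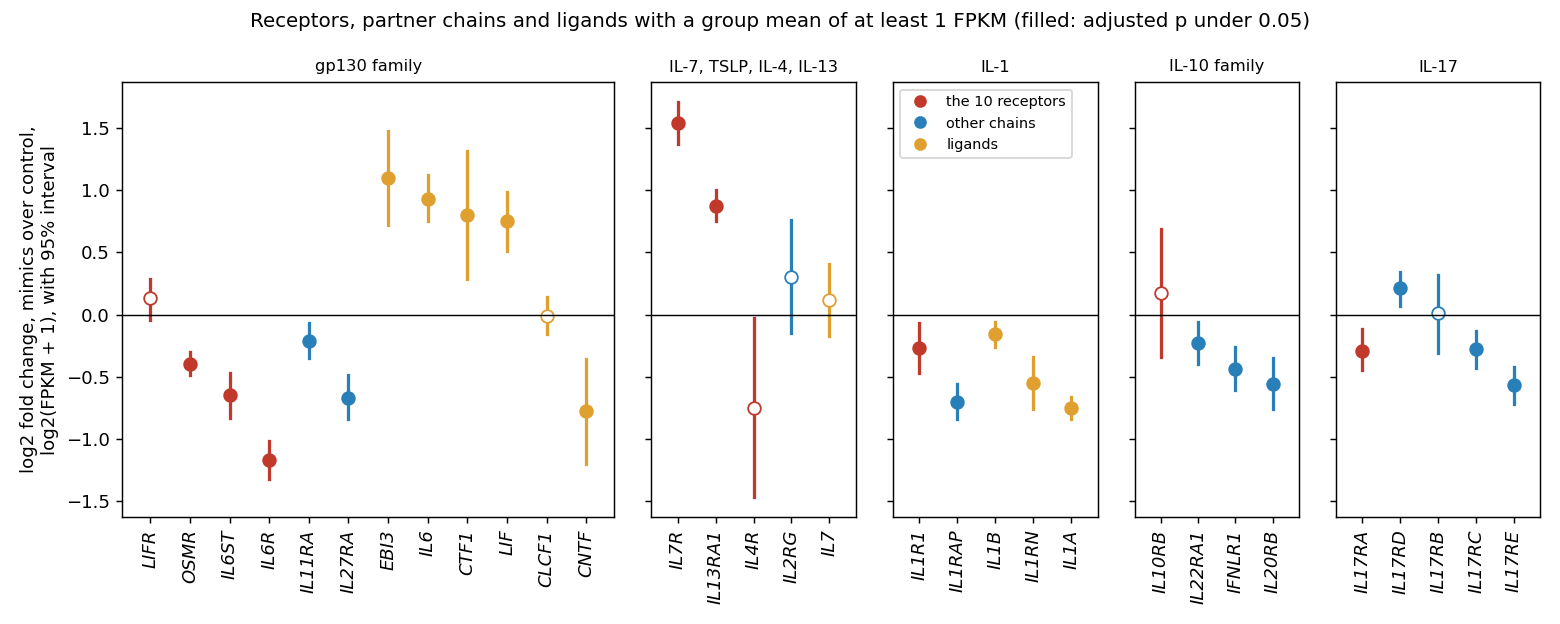
Log2 change (y axis, miR-204-5p over control, log2(FPKM + 1)) with the 95% interval of limma, for the 10 receptors (red), their partner chains (blue) and ligands (yellow) with a group mean of at least 1 FPKM, by receptor family. Filled points have an adjusted p-value under 0.05. In the gp130 panel IL6R, IL6ST, OSMR, IL11RA, IL27RA and CNTF lie below 0 and EBI3, IL6, CTF1 and LIF above, and in the IL-1 panel all 5 points lie below 0.

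Downstream of these receptors, 30 genes for JAK kinases, STATs and their regulators were all in the table. By limma, 8 were lower and 6 higher in the miR-204-5p libraries, against 16.8% and 23.9% of all genes. Their median log2 change was 0.03. JAK2 (log2 change −0.46) and STAT3 (−0.34), which serve gp130, were lower, and SOCS3, a feedback inhibitor that binds gp130, was higher (0.60). JAK1 was at 28.6 ± 1.18 FPKM in the miR-204-5p libraries and 27.8 ± 0.636 in the control libraries (95% interval of the log2 change −0.06 to 0.15), and TYK2 at 25.7 ± 0.335 and 26.1 ± 1.46 (−0.14 to 0.09). JAK3 was higher, from 0.582 ± 0.283 to 1.14 ± 0.0297 FPKM (log2 change 0.45, limma adjusted p = 0.0283). That call was kept in 2 of 6 fits that left out a library. STAT6, which IL-4 and IL-13 use, was lower (log2 change −0.17, limma adjusted p = 0.0100). PIAS4, a SUMO ligase, had the largest decrease of the list, from 23.7 ± 1.25 to 11 ± 0.368 FPKM (log2 change −1.04, limma adjusted p = 6.74e-05). SOCS7 was lower (log2 change −0.73) and PIAS3, an inhibitor of STAT3, higher (0.45).

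The list of adaptors of the IL-1 and IL-17 receptors and of proteins that shed or sort receptors held 20 genes. Of these, 3 were lower and 1 higher in limma, against 16.8% and 23.9% of all genes. Their median log2 change was −0.05. ADAM17, a protease that releases IL6R from the cell surface, fell from 23.2 ± 0.651 to 17.5 ± 0.874 FPKM (log2 change −0.39, limma adjusted p = 0.00130), and ADAM10, which can also shed IL6R, from 18.9 ± 0.923 to 15.7 ± 0.855 FPKM (limma adjusted p = 0.0147). TRAF2 was lower (log2 change −0.30) and TRAF6, an adaptor of IL1R1 and IL17RA signaling, higher (log2 change 0.34), a call kept in 2 of 6 fits that left out a library. MYD88 ranged from 8.85 to 20.4 FPKM, with overlap of the groups (limma adjusted p = 0.392).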

How the data were processed

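UM-SCC1 RNA libraries (3 with miR-204-5p mimics, 3 with control mimics, TruSeq) were sequenced by the authors on HiSeq X instruments. The FPKM values were computed by the authors. Per the labels, their processing notes name HISAT2, StringTie and hg38, with no versions or roles. The annotation is not given in the sources used here. Deposited columns with the authors' edgeR comparison (log2 ratio, p-value, FDR) were not used. Listed length and exon number were read as other columns of the deposited table.

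Since FPKM are not counts and whole reads could not be recovered for most genes, log2(FPKM + 1) of all 14959 genes was fitted with lmFit and trended eBayes (limma 3.58.1, R 4.3.3), without a filter or block, two-sided, with Benjamini-Hochberg adjustment at 0.05. The fit was first tested on simulated data with normal noise, in which 200 of the 14959 genes were changed. It recovered 71 of 100 changes of log2 0.5 and 88 of 100 of log2 1, with 6 false calls. In the real data 40.8% of genes were called, so the simulated setting differs in the share of changed genes. Of the listed transcripts, 14946 were found in GENCODE 29 and 14844 had the same start and end, so its coordinates (GRCh38) were used. 3'UTRs came from transcripts of type protein coding. Chain ratios were tested by exact permutation (scipy 1.17.1). Figures used matplotlib 3.10.9.

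The receptors and gene lists were chosen with earlier results of these data known. Genes were named by a rule: all 10 receptors, their partners and ligands, per list up to 4 rises and 4 falls that passed 0.05 without overlap and with a group mean of at least 1 FPKM, and the 3 genes closest to the receptor with the largest change. IL18R1, CSF2RB, JAK1, TYK2, STAT6, MYD88, PTPRC and CD3E fall outside it and were chosen after their values were seen. The same holds for NKG7, CD68, LYZ, COL1A1, EPCAM, VWF, RICTOR and AP000295.1. Counts were not at hand, so edgeR and DESeq2 were not run here. No protein sequence was used here. A gene of the ligand list is counted there but not reported here.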

Additional observations from a re-analysis of the deposited data

How the results depend on the processing

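IL7R, IL13RA1, IL6R, IL6ST and OSMR kept their direction and an adjusted p-value under 0.05 in limma under all 12 alternatives run: a pseudocount of 0.1, a mean FPKM of at least 1, scaling to equal sums or medians, quantile normalization, the replicate block and each library left out. The number of receptors called, 7 of 10, became 6 with a pseudocount of 0.1 (40.7% of all genes called), 6 of 9 with the filter, which removes IL1R1 (50.1%), and 6 in each fit that left out a library (33.2% to 35.9%). With a pseudocount of 0.1 IL1R1 was lost (limma adjusted p = 0.0503). The log2 change of IL10RB, which did not pass in any fit, changed sign without miR-204-5p replicate 1 and ran from −0.09 to 0.32 when a library was left out. Leaving out 1 library gave 11 to 14 called partner chains in place of 17, 8 to 11 ligands in place of 12, 10 to 11 JAK-STAT genes in place of 14 and 3 to 5 adaptors in place of 4. Under the 3 scalings the median log2 change of all genes was 0.00 to 0.01 in place of 0.03, and 5 receptors were lower and 2 higher. With the replicate number as a block, 8 receptors and 34.1% of all genes were called, IL4R being the one added (log2 change −0.75, limma adjusted p = 0.0418). The numbers only name the libraries: deviations of same-numbered libraries correlated at −0.0401, −0.0210 and −0.108. The number of receptors with a seed match was 7 with the longest 3'UTR or all joined. Tests that need counts were not run. At the inferred depth, IL1R1 and, with control mimics, IL7R rest on under 10 fragments per library if the listed lengths hold.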
